A study of Homo sapiens with 6 samples.

Results

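The HOXA-MEIS1 program of KMT2A-fusion leukemia was followed here through 10 genes, HOXA3, HOXA5, HOXA7, HOXA9, HOXA10, MEIS1, PBX3, MEF2C, JMJD1C and CDK6, of 20348 in the deposited table. A gene was taken as a member when its symbol in the table equalled one of these names, and all 10 were found once. They were compared in MV4-11 cells between 3 Ctrl samples, labelled as untreated, and 3 samples given 1 µM of WNK463, a compound that inhibits WNK kinases, for 48 h. MV4-11 is an established human acute myeloid leukemia (AML) line that carries a KMT2A-AFF1 fusion and an internal tandem duplication of FLT3. All samples shared this 1 line, and the labels do not say whether replicates were separate cultures, so p-values measure only the spread between these samples, which may be technical.

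KMT2A (also MLL) is a histone methyltransferase that keeps HOX genes active in blood progenitors. When its gene is fused to a partner such as AFF1, the fusion protein recruits elongation factors and the methyltransferase DOT1L to the same genes, and the late HOXA genes and MEIS1 stay on where maturing cells would silence them. HOXA9 binds DNA together with the TALE homeodomain proteins MEIS1 and PBX3, and this set is known for maintaining leukemia cells in an immature, self-renewing state. MEF2C, JMJD1C and CDK6 are further direct targets of the fusion protein in this disease.

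Values are counts per 1000000 (CPM) on library sizes scaled by TMM, a method that sets the bulk of genes to no change. Differences are log2 fold changes, WNK463 minus Ctrl, from edgeR's quasi-likelihood test with Benjamini-Hochberg adjustment over 11973 genes, and a gene passed at an adjusted p below 0.05. Levels of different genes are ranked as TPM, which is per transcript length, and count ratios of gene pairs are used only for their change between groups. Total counts lay between 15328483 and 17411780 in Ctrl and between 14915745 and 16171235 with WNK463. The spread between replicates beyond counting error, edgeR's biological coefficient of variation, was 5.21% at the common dispersion. Of 10 myeloid markers fixed for checking the line, 9 passed the filter on low counts, of which 4 were higher, 4 lower and 1 not past the test. Over all tested genes the shares were 35.5% higher and 35.3% lower. The summed level of these markers was 2379 to 2476 CPM in Ctrl and 1370 to 1426 CPM with WNK463. That fall came mostly through LYZ (lysozyme), the most abundant of them, which fell by 2.22 on the log2 scale (SE 0.05, adjusted p = 2.8e-16). The other lower markers were MPO (-2.50), CD33 (-0.38) and FLT3 (-0.20). ITGAM (1.25), CSF1R (0.97), CSF3R (0.21) and CEBPA (0.18) were higher. Of 14 markers of T, B, erythroid, platelet, stromal, epithelial and endothelial cells, 10 had at most 3 counts in each sample, and CD3D, MS4A1, HBB, PF4, COL1A2 and EPCAM were among those at 0 in all. Their summed level was 101.9 to 115 CPM in Ctrl and 169.8 to 184 CPM with WNK463, most of it PECAM1. This adhesion molecule, which monocytes and granulocytes also carry, rose by 0.80 (SE 0.06, adjusted p = 9.5e-10). KRT18, an epithelial marker, was also detected, at 9.74, 10.2 and 10.4 CPM in Ctrl, and fell by 0.68 (SE 0.13, adjusted p = 1.6e-04). The part of these markers in the results below was not tested, and in a bulk culture fewer cells of a kind and less RNA per cell cannot be told apart.

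The DNA just upstream of 4 members is shown first, because HOXA9 and HOXA10 are neighbours whose counts moved differently, MEIS1 is their partner, and JMJD1C starts head to head with a gene that moved far more. Each line is the 250 bases before a RefSeq transcript start on GRCh38.p14, 5′ to 3′ on the gene's strand, with every CG dinucleotide in capitals. HOXA9 is the minus-strand window chr7:27165538-27165787, HOXA10 the minus-strand window chr7:27174321-27174570, MEIS1 the plus-strand window chr2:66434875-66435124 and JMJD1C the minus-strand window chr10:63521891-63522140.
HOXA9: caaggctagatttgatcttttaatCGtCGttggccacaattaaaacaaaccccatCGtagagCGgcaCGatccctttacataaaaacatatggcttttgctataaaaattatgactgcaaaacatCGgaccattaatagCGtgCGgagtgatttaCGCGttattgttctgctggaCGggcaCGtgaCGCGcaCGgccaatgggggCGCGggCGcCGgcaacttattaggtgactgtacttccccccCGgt
HOXA10: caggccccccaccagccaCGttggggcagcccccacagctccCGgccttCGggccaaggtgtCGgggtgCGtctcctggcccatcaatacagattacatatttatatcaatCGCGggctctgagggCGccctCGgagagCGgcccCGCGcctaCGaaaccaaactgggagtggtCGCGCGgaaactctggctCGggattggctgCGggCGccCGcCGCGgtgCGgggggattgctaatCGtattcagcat
MEIS1: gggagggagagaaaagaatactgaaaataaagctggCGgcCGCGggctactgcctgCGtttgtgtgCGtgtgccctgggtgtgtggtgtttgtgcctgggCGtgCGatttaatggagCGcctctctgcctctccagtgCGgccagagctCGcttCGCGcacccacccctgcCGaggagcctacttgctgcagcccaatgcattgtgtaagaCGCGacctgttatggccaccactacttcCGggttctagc
JMJD1C: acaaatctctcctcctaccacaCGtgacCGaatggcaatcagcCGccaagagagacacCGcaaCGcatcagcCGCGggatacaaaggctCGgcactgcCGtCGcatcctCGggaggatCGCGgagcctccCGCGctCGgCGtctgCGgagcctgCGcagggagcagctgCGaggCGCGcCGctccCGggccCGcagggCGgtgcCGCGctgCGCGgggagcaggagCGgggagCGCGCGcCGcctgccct
The windows held 20 CG dinucleotides for HOXA9, 24 for HOXA10, 16 for MEIS1 and 35 for JMJD1C, against a median of 11 over 35116 promoter windows of this length. JMJD1C stood high in that order, with 94.2% of windows holding fewer. In the GENCODE 29 annotation the HOXA9, HOXA10 and MEIS1 windows overlapped no exon and lay inside longer transcripts, that of HOXA10 within the spans of both HOXA9 and HOXA10. The JMJD1C window overlapped no exon and lay inside REEP3 on the other strand. Neither TGACAG, the hexamer that MEIS proteins prefer, nor TGATTNAT, the composite site of PBX with a late HOX protein, occurred on either strand of the 4 windows. Over all windows, 13.0% held TGACAG and 2.48% held TGATTNAT, so the absence of the letters here says only that they are not in these 250 bases. Of the 10 members, 9 were in the promoter table. Among windows not shown here, TGACAG occurred in that of PBX3 and in some of those of MEF2C. HOXA10 and JMJD1C have further RefSeq starts, whose windows held 19 CG dinucleotides for HOXA10 and 5 and 34 for JMJD1C.

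With WNK463, 6 of the 10 members were higher past the test (HOXA9, MEIS1, PBX3, MEF2C, JMJD1C and CDK6), 1 was lower (HOXA10), and 3 were too low to test (HOXA3, HOXA5 and HOXA7). Among all tested genes 35.5% were higher and 35.3% lower past the same test, together 70.8%, so a call in either direction was common in these libraries. The counts of gene lists given below are to be read beside these shares. The 3 WNK463 samples lay above the 3 Ctrl samples for the 6 higher members and below them for HOXA10, while 37.1% of tested genes lay above and 36.4% below without overlap, together 73.5%. The 7 tested members had a median log2 fold change of 0.33, beside 0.02 over all tested genes, of which 50.9% had a value above 0. Their changes ran from a fall of 0.14 to a rise of 0.81. Under TMM scaling 0 of these 7 reached an absolute log2 fold change of 1, which 9.62% of tested genes passed upward and 5.55% downward. The members were picked with results of these samples known, and these counts describe them and carry no test of the list.

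**Figure D1:**
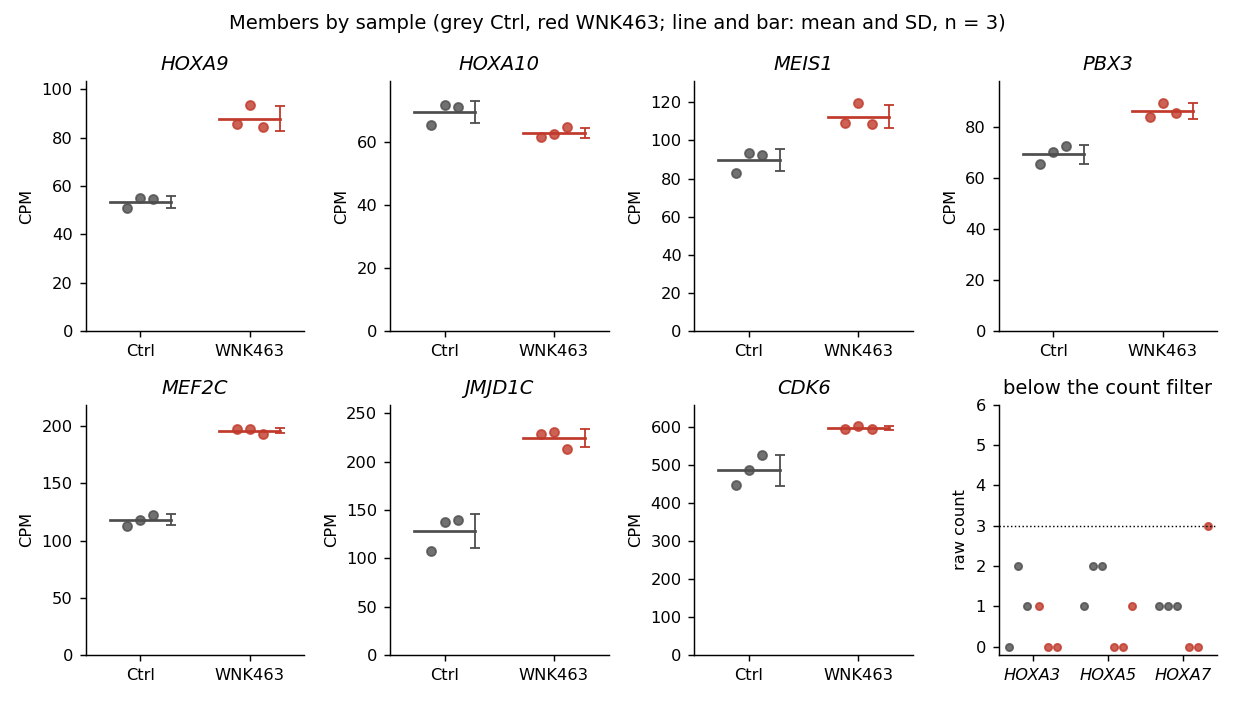
Level of each member in the 3 Ctrl (grey) and 3 WNK463 (red) samples, in CPM from 0 on the vertical axis, with the group mean as a line and the SD as a bar (n = 3), and raw counts for the 3 members below the filter with a dotted line at 3 counts. The red points lie above the grey points for 6 genes and just below them for HOXA10.

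HOXA9, the homeodomain factor at the centre of the program (ENSG00000078399, chromosome 7, 27162435 to 27175180, minus strand), was measured at 50.8, 54.9 and 54.7 CPM in Ctrl and 85.8, 93.7 and 84.4 CPM with WNK463. The groups were well apart, and the lowest treated sample stood far above the highest control. The mean rose from 53.5 ± 2.34 to 88.0 ± 4.99 CPM (SD, n = 3), a log2 fold change of 0.72 (SE 0.06, 95% interval 0.59 to 0.85, adjusted p = 8.8e-09), or 64.6% more. A larger rise was seen for 14.9% of tested genes. Per transcript length the level rose from 62.6 ± 4.74 to 113 ± 5.60 TPM.

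HOXA10, its neighbour and a homeodomain factor active in the same progenitors (ENSG00000253293, chromosome 7, 27170591 to 27180261, minus strand), was at 65.5, 71.95 and 71.0 CPM in Ctrl and 61.7, 62.5 and 64.8 CPM with WNK463. The groups did not overlap, but the gap between the lowest Ctrl and the highest WNK463 sample was smaller than the spread within either group. The means were 69.5 ± 3.49 and 63.0 ± 1.60 CPM (SD, n = 3), with a log2 fold change of -0.14 (SE 0.06, 95% interval -0.27 to -0.02, adjusted p = 0.040) that turned to 0.01 (adjusted p = 0.88) when libraries were scaled by total counts and to 0.05 (adjusted p = 0.54) in TPM. On the TPM scale the groups overlapped, at 48.8 to 57.1 in Ctrl and 54.8 to 56.2 with WNK463. The call was also lost without Ctrl 2 (-0.13, adjusted p = 0.12), without Ctrl 3 (-0.14, adjusted p = 0.072), without WNK463 1 (-0.13, adjusted p = 0.11) and without WNK463 2 (-0.14, adjusted p = 0.085). Under DESeq2 the adjusted p was 0.062, and over all fits made the log2 fold change of HOXA10 lay between -0.19 and 0.05.

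The ratio of the 2 genes within a sample does not depend on library scaling. The log2 ratio of HOXA9 to HOXA10 counts was -0.37, -0.39 and -0.38 in the Ctrl samples and 0.48, 0.58 and 0.38 in the WNK463 samples. Per transcript length, HOXA9 was above HOXA10 in every sample, with log2 TPM ratios of 0.23, 0.21 and 0.22 in Ctrl and 1.00, 1.13 and 0.96 with WNK463. The ratio rose by 0.86 on the log2 scale, 1.81-fold in counts and 1.75-fold in TPM (exact two-sided permutation p = 0.10, the smallest that 3 against 3 samples can give). In GENCODE 29 the spans of HOXA9 and HOXA10 overlap on the same strand, without shared exons. Their exons do overlap those of HOXA10-AS, on the opposite strand, and of a readthrough gene (ENSG00000257184), on the same strand. The readthrough gene was at 0 counts in all 6 samples, and whether strand was used in counting was not given in the sources used here.

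HOXA3, HOXA5 and HOXA7, early and middle genes of the cluster, were at or near 0. HOXA3 (ENSG00000105997) had 0, 2 and 1 counts in Ctrl and 1, 0 and 0 with WNK463. HOXA5 (ENSG00000106004) had 1, 2 and 2 counts in Ctrl and 0, 0 and 1 with WNK463. HOXA7 (ENSG00000122592) had 1, 1 and 1 counts in Ctrl and 0, 0 and 3 with WNK463. No sample exceeded 3 counts, a floor worth 0.174 to 0.206 CPM at these depths, so no difference could be detected and no fold is given. Without the filter on low counts their adjusted p were 0.51, 0.28 and 0.98 among 15743 genes.

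Along the cluster, transcripts were concentrated at the late genes. In Ctrl, HOXA9 and HOXA10 stood at 62.6 and 53.8 TPM and HOXA11 at 15.4 TPM, while HOXA2 through HOXA7 had at most 11 counts in any sample. HOXA11 and HOXA13, further along, also passed the filter. HOXA11 had a log2 fold change of -0.16 (SE 0.08, adjusted p = 0.087), and 0.04 in TPM. HOXA13, the last gene, was at 1.95, 1.92 and 1.77 CPM in Ctrl and 0.785, 0.698 and 0.958 CPM with WNK463. These levels are low but do not overlap, and the fall was 1.20 on the log2 scale (SE 0.32, adjusted p = 0.0024). Within a sample the HOXA9 to HOXA11 count ratio rose by 0.88 (exact permutation p = 0.10), beside 0.86 for the ratio to HOXA10, while the HOXA10 to HOXA11 ratio moved by 0.02 (exact permutation p = 0.80). Of HOXA9, HOXA10, HOXA11 and HOXA13, HOXA9 was the one that rose past the test, under every scaling tried.

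**Figure D2:**
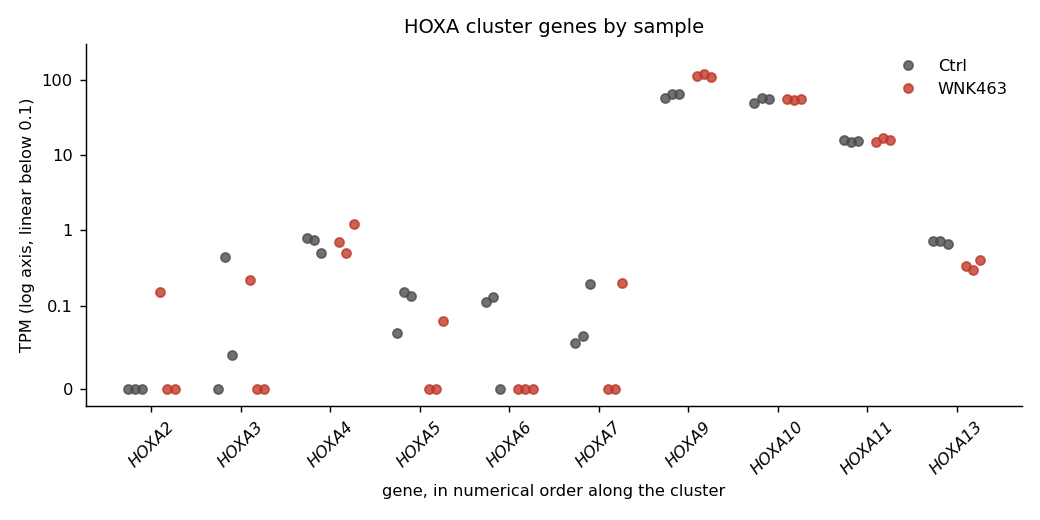
TPM of 10 HOXA genes in numerical order (horizontal axis) in each of 3 Ctrl (grey) and 3 WNK463 (red) samples; the vertical axis is logarithmic and linear below 0.1. HOXA9 and HOXA10 are the highest of the cluster, and the groups separate upward at HOXA9 and downward at HOXA13.

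The other HOX clusters were mostly silent. Of 28 genes of the HOXB, HOXC and HOXD clusters, 12 were at 0 counts in every sample and 7 passed the filter. HOXB3 was higher (0.62, SE 0.24, adjusted p = 0.025) and HOXC9 lower (-0.93, SE 0.38, adjusted p = 0.035), both at 5.23 CPM or less in every sample, and both calls were lost under DESeq2, at adjusted p of 0.064 and 0.12. Summed over the 28 genes the level was 25.8 to 27.0 TPM in Ctrl and 26.4 to 28.2 TPM with WNK463, less than that of HOXA9 alone.

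MEIS1, the TALE homeodomain cofactor that stabilises HOXA9 on DNA (ENSG00000143995, chromosome 2, 66433452 to 66573869, plus strand), was at 83.0, 93.1 and 92.5 CPM in Ctrl and 109, 119.5 and 109 CPM with WNK463. Every treated sample was above every control. The mean rose from 89.6 ± 5.66 to 112 ± 6.11 CPM (SD, n = 3), a log2 fold change of 0.33 (SE 0.06, 95% interval 0.20 to 0.46, adjusted p = 8.7e-05). In TPM the rise was 0.60, from 44.4 ± 4.63 to 67.7 ± 2.73, more than 1.5 times as large. PBX3, the PBX protein that joins HOXA9 and MEIS1 (ENSG00000167081, chromosome 9, 125747345 to 125967377, plus strand), was at 65.3, 69.96 and 72.6 CPM in Ctrl and 83.6, 89.4 and 85.2 CPM with WNK463. Its groups were also separate, with a log2 fold change of 0.31 (SE 0.06, 95% interval 0.19 to 0.44, adjusted p = 1.1e-04) and a rise of 0.48 in TPM. The MEIS1 to PBX3 count ratio moved by 0.01 on the log2 scale (exact permutation p = 0.50), whereas HOXA9 rose over MEIS1 by 0.39 and over PBX3 by 0.40, each with an exact permutation p = 0.10. In TPM the MEIS1 to PBX3 ratio moved by 0.12 (exact permutation p = 0.30), and HOXA9 rose over MEIS1 by 0.25 and over PBX3 by 0.37.

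Of 9 TALE cofactors, MEIS1 and PBX3 included, 7 passed the filter, of which 5 were higher and 2 lower. Among all tested genes 35.5% were higher and 35.3% lower. PBX2 rose by 0.30 (SE 0.07, adjusted p = 6.1e-04). MEIS3 (1.24, SE 0.41, adjusted p = 0.012) and PBX4 (0.78, SE 0.31, adjusted p = 0.032) were higher, with at most 33 counts in any sample, and neither passed under DESeq2. MEIS2, the MEIS1 paralog, had 319, 302 and 365 counts in Ctrl and 188, 176 and 158 with WNK463 and fell by 0.98 (SE 0.10, adjusted p = 1.1e-07). PKNOX1, a TALE relative that also binds PBX proteins, fell by 0.37 (SE 0.07, adjusted p = 6.4e-05). PKNOX2 had at most 3 counts. MEIS1 and PBX3 were thus the most abundant MEIS and PBX transcripts per length of those tested in both groups.

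MEF2C, a MADS-box factor of myeloid and lymphoid progenitors (ENSG00000081189, chromosome 5, 88717117 to 88904257, minus strand), was at 113, 118 and 123 CPM in Ctrl and 197, 197 and 193 CPM with WNK463. The treated samples were close together and far above the controls. The mean rose from 118 ± 4.83 to 196 ± 2.26 CPM (SD, n = 3), a log2 fold change of 0.73 (SE 0.05, 95% interval 0.63 to 0.84, adjusted p = 4.1e-10), and 14.6% of tested genes rose more. The rest of its family did not move together. MEF2D, a paralog expressed in most tissues, was at 484, 502 and 472 CPM in Ctrl and 272, 254 and 259 CPM with WNK463, a fall of 0.89 (SE 0.05, adjusted p = 1.4e-11). MEF2B rose by 2.44 (SE 0.20, adjusted p = 4.2e-09) from 26 to 40 counts in Ctrl. MEF2A had 0.05 (SE 0.07, adjusted p = 0.52). Among the class IIa deacetylases that repress MEF2 proteins, HDAC4 fell by 0.55 (SE 0.06, adjusted p = 1.3e-07) and HDAC9 by 1.11 (SE 0.21, adjusted p = 1.2e-04). HDAC5 (0.09, adjusted p = 0.22) and HDAC7 (-0.05, adjusted p = 0.61) did not pass the test, and HDAC5 was higher under total-count scaling (0.24, adjusted p = 0.0026). Over the 9 genes of this list, with SIK3, the kinase that phosphorylates these deacetylases, 3 were higher, 3 lower and 3 not past the test (median 0.05), and 5 were higher and 3 lower under total-count scaling (median 0.20).

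JMJD1C, a KDM3-family jumonji protein that acts as a coactivator of HOXA9 (ENSG00000171988, chromosome 10, 63167221 to 63521850, minus strand), was at 108, 137 and 139.7 CPM in Ctrl and 229, 231 and 214 CPM with WNK463. Ctrl 1 was low among the controls, and the groups were far apart. Its log2 fold change was the highest of the members, 0.81 (SE 0.07, 95% interval 0.65 to 0.96, adjusted p = 2.3e-08), from 128 ± 17.6 to 224 ± 9.26 CPM (SD, n = 3), and 13.0% of tested genes rose more. Of the KDM3 family, KDM3A, an H3K9 demethylase, rose by 0.54 (SE 0.05, adjusted p = 3.3e-08), KDM3B fell by 0.32 (SE 0.05, adjusted p = 1.5e-05) and HR was at 0 counts. REEP3, an endoplasmic reticulum protein gene that starts on the opposite strand inside the 5′ end of JMJD1C (chromosome 10, 63521363 to 63625123), was named after its values were seen. It was at 46.8, 49.3 and 53.6 CPM in Ctrl and 287, 299.9 and 295 CPM with WNK463, a rise of 2.56 (SE 0.06, adjusted p = 3.4e-16), against 0.81 for JMJD1C. Their exons do not overlap in GENCODE 29.

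CDK6, the cell cycle kinase on which KMT2A-rearranged cells depend (ENSG00000105810, chromosome 7, 92604921 to 92836594, minus strand), was at 446, 485 and 527 CPM in Ctrl and 595, 601.5 and 593 CPM with WNK463. The controls were spread over a wider range than the treated samples, and the groups did not overlap. The mean rose from 486 ± 40.5 to 597 ± 4.40 CPM (SD, n = 3), a log2 fold change of 0.30 (SE 0.05, 95% interval 0.18 to 0.41, adjusted p = 7.8e-05), and 0.49 in TPM. CDK4, the other kinase that cyclin D activates, was at 185, 172 and 176 CPM in Ctrl and 95.7, 85.3 and 95.3 CPM with WNK463, a fall of 0.95 (SE 0.06, adjusted p = 7.4e-11). CCND3 (0.39, SE 0.04, adjusted p = 4.6e-07) and CCND2 (0.28, SE 0.09, adjusted p = 0.0079), cyclins that activate CDK6, were higher and CCND1 was lower (-0.87, SE 0.26, adjusted p = 0.0057), with -0.36 (adjusted p = 0.073) in limma on log2(TPM + 1). RB1, the substrate, rose by 0.60 (SE 0.06, adjusted p = 4.3e-08). Of the INK4 inhibitors, CDKN2B rose by 1.69 (SE 0.27, adjusted p = 2.1e-05) from 16 to 21 counts in Ctrl, CDKN2D (0.56) and CDKN2C (0.17) were higher, CDKN2C not past the test under DESeq2 (0.16, adjusted p = 0.089), and CDKN2A was lower (-0.31), though not past the test under total-count scaling (-0.16, adjusted p = 0.068). In this list of 10 genes, CDK6 included, 7 were higher and 3 lower, with a median of 0.29. Among all tested genes 35.5% were higher and 35.3% lower.

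**Figure D3:**
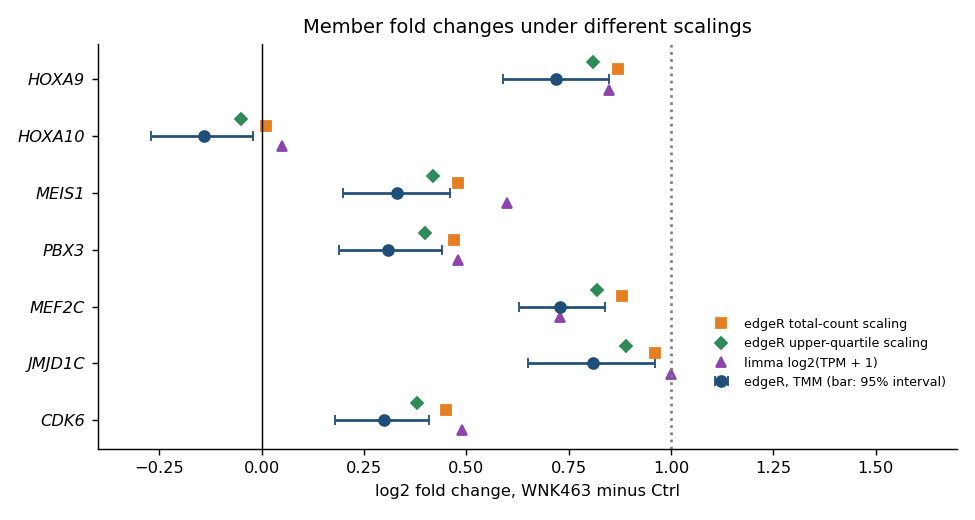
Log2 fold change, WNK463 minus Ctrl (horizontal axis), of the 7 tested members under TMM scaling (blue, with its 95% interval), total-count scaling (orange), upper-quartile scaling (green) and limma on log2(TPM + 1) (purple), with 0 as a solid and 1 as a dotted line. All marks are right of 0 for 6 members, and those of HOXA10 lie on both sides of 0.

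The size of these changes depended on scaling. The TMM factors were 0.944 to 0.952 in Ctrl and 1.05 to 1.06 with WNK463, so that scaling by total counts moved the median of all genes up by 0.15 and TPM moved it up by 0.18, on the log2 scale. The direction of the 6 higher members and their calls held under all of the 16 alternatives read for members. The test against a log2 fold change of 1 is not among these 16 and was read only for counts over all genes. Under total-count scaling CDK6 came to 0.45, 1.5 times its value above, and HOXA9 to 0.87. JMJD1C came to 0.96 under total-count scaling and to 1.00 with limma on log2(TPM + 1). At both thresholds the higher genes made up 63.4% of all called genes under TMM and 76.0% under total counts.

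Per transcript length the members fell into an order that shifted with treatment. In Ctrl, MEF2C (79.9 ± 7.68 TPM) and CDK6 (77.7 ± 7.10 TPM) were highest and their ranges overlapped. HOXA9 (62.6 TPM) and PBX3 (55.7 TPM) overlapped next, as did PBX3 and HOXA10 (53.8 TPM), and MEIS1 (44.4 TPM) and JMJD1C (28.8 TPM) followed, each apart from its neighbours. With WNK463, MEF2C was highest at 132 ± 4.78 TPM, HOXA9 (113 TPM) came level with CDK6 (109 ± 1.57 TPM), and PBX3 (78.3 TPM) and MEIS1 (67.7 TPM) came next, each apart. JMJD1C (58.2 TPM) and HOXA10 (55.6 TPM) overlapped at the end of the order. HOXA10 moved from rank 5 to rank 7 without a change in TPM beyond its spread, since the members around it rose.

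**Figure D4:**
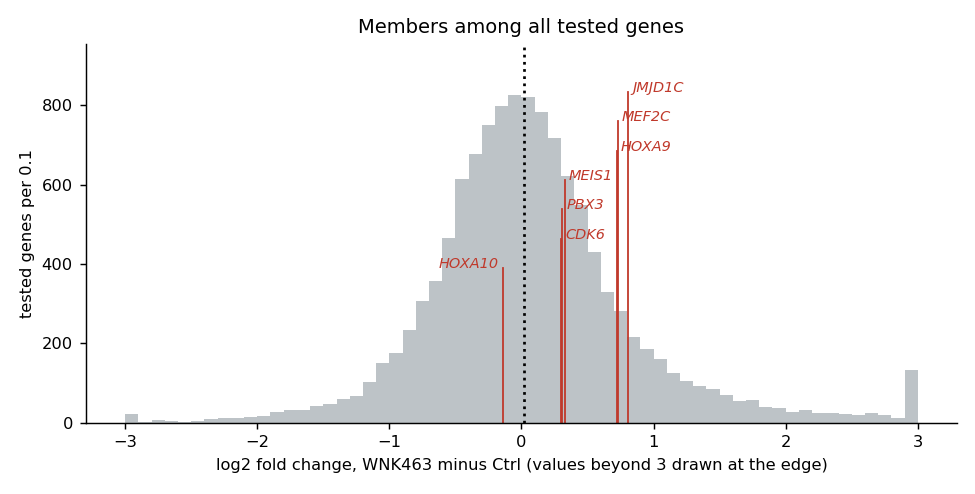
Histogram of log2 fold changes, WNK463 minus Ctrl, of all 11973 tested genes in bins of 0.1, with red lines for the 7 tested members, drawn at different heights for legibility, and a dotted line at the median of 0.02. JMJD1C, MEF2C and HOXA9 lie in the right shoulder, MEIS1, PBX3 and CDK6 near 0.3 and HOXA10 left of the median.

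The genes that build and drive the fusion complex were mostly lower under TMM scaling. KMT2A itself was at 295, 295 and 297 CPM in Ctrl and 204, 191 and 193 CPM with WNK463, a fall of 0.59 (SE 0.05, adjusted p = 2.5e-09). AFF1, its partner in this line, was at 235, 241 and 241 CPM in Ctrl and 147, 142 and 145 CPM with WNK463, a fall of 0.72 (SE 0.05, adjusted p = 1.9e-10). Both groups were separate in each gene. Counts per gene cannot tell the fusion transcript from the normal alleles. HOXA9 counts rose relative to KMT2A counts by 1.31 on the log2 scale, 2.48-fold (exact permutation p = 0.10), and the AFF1 to KMT2A ratio moved by -0.13. Of 22 genes of the complex and its cofactors, 13 were lower, 5 higher and 4 not past the test, with a median of -0.26. Among all tested genes 35.3% were lower and 35.5% higher. Under total-count scaling 9 of the 22 genes were lower and 7 higher (median -0.11). Lower genes included WDR5 (-0.82), a subunit of the methyltransferase core, MLLT1 (-0.60), the ENL reader, and DOT1L (-0.56), the H3K79 methyltransferase, each with an SE of 0.05 and lower under every scaling. MEN1, the menin scaffold that tethers KMT2A to the HOXA genes, had -0.25 (SE 0.06, adjusted p = 0.0011), but -0.10 (adjusted p = 0.13) under total-count scaling. AFF4, the scaffold of the elongation complex, rose by 0.66 (SE 0.05, adjusted p = 5.3e-09). MLLT3, the AF9 reader, rose by 1.74 (SE 0.37, adjusted p = 3.7e-04), from 7 to 17 counts in Ctrl to 31 to 60 with WNK463.

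Transcripts of Polycomb proteins, which silence HOX genes in maturing cells, were also mostly lower under TMM scaling. Of 14 genes, 9 were lower, 4 higher and 1 not past the test (median -0.23), and 5 were lower and 4 higher under total-count scaling. Of all tested genes, 35.3% were lower and 35.5% higher under TMM scaling. EZH2, the methyltransferase that writes H3K27me3, fell by 0.60 (SE 0.05, adjusted p = 1.9e-08). CBX2, which reads that mark, fell by 1.22 (SE 0.08, adjusted p = 2.0e-10). BMI1 (0.59, SE 0.09, adjusted p = 1.2e-05) and RNF2 (0.45, adjusted p = 2.9e-04), of the ubiquitin ligase complex, were higher, but RNF2 had 0.21 (adjusted p = 0.12) with limma on log2(TPM + 1). EZH1 (0.29, adjusted p = 0.016) and CBX8 (0.27, adjusted p = 0.015) were also higher. EZH1 did not pass with limma on log2(TPM + 1) (0.23, adjusted p = 0.21), nor CBX8 under DESeq2 (0.26, adjusted p = 0.062).

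**Figure D5:**
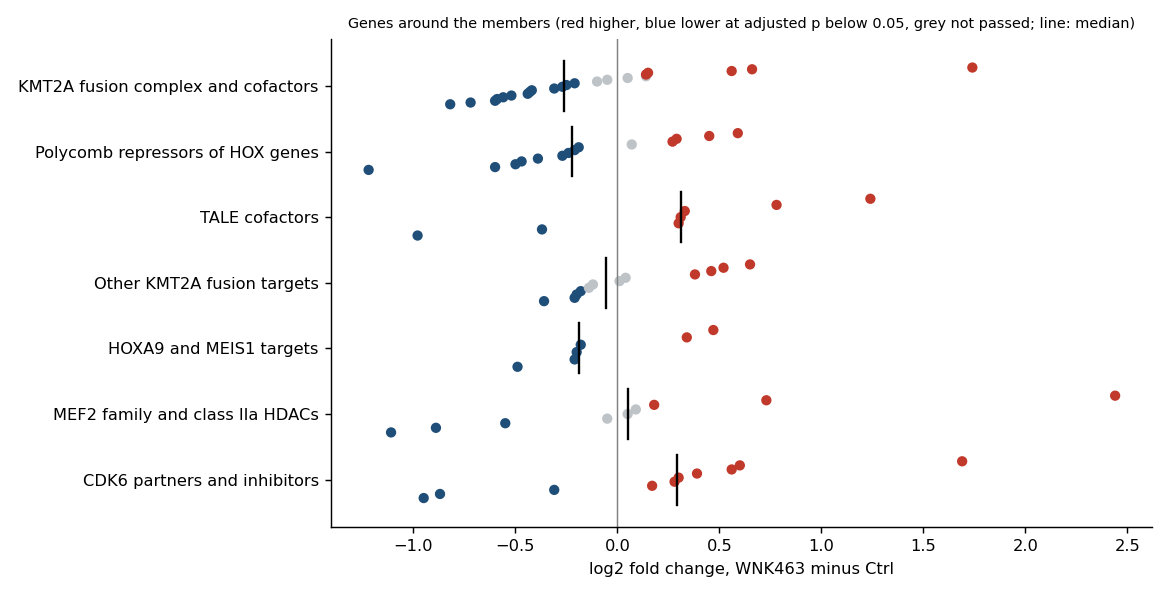
Log2 fold change, WNK463 minus Ctrl (horizontal axis), of each tested gene in 7 lists around the members (vertical axis; the offset within a list only separates points), red for higher and blue for lower at adjusted p below 0.05, grey for not passed, with the list's median as a black line. Medians run from -0.26 for the KMT2A complex to 0.31 for the TALE cofactors, and each list holds genes on both sides of 0.

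Other targets of the fusion protein moved in both directions, in a balance that depended on scaling. Of 14 genes in that list, 12 passed the filter, and 4 were higher, 4 lower and 4 not past the test (median -0.06). Under total-count scaling 6 were higher, 1 lower and 5 not past the test (median 0.10). RUNX1 (0.46, SE 0.04, adjusted p = 3.6e-08) and RUNX2 (0.52, SE 0.05, adjusted p = 3.7e-08), core-binding factors of blood progenitors, MBNL1, a splicing regulator (0.38), and CPEB2, which binds mRNA (0.65), were higher. IGF2BP2, an mRNA reader, fell by 0.36. FLT3, the receptor kinase that carries the duplication in this line, was at 348, 377 and 381 CPM in Ctrl and 318, 324 and 317 CPM with WNK463 (-0.20, SE 0.05, adjusted p = 8.3e-04), which became -0.05 (adjusted p = 0.32) under total-count scaling. BCL2, the apoptosis inhibitor that venetoclax binds, had -0.18 (SE 0.05, adjusted p = 0.0018). Its value was -0.17 (adjusted p = 0.022) with limma on log2(TPM + 1), but -0.03 (adjusted p = 0.56) under total-count scaling. LMO2 had -0.21 and, on the TPM scale, 0.03 (adjusted p = 0.71). PROM1 was at 0 counts in all samples and EYA1 had at most 6.

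Among 8 genes known as targets of HOXA9 and MEIS1, 6 passed the filter, of which 2 were higher and 4 lower (median -0.19). Under total-count scaling 2 were higher and 1 lower (median -0.04), and with limma on log2(TPM + 1) 2 were higher and 2 lower (median 0.01). MYB, a progenitor transcription factor, was at 454, 476 and 478 CPM in Ctrl and 337, 338 and 325 CPM with WNK463, a fall of 0.49 (SE 0.04, adjusted p = 1.9e-08), against the direction of HOXA9 and MEIS1 and without overlap. KIT, the stem cell factor receptor, rose by 0.47 (SE 0.09, adjusted p = 2.4e-04) and SOX4 by 0.34 (SE 0.06, adjusted p = 2.7e-05). FLT3, BCL2 and LMO2, in both lists, are given above. TRIB2 and ERG had at most 19 and 5 counts in any sample.

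The tested genes most like HOXA9 in pattern over the 6 samples, among those with a mean CPM within 2-fold of its own, were CLK1, a splicing kinase (root mean square difference of centred log2 CPM of 0.0193 among 4215 genes compared), SRGAP2B and CCNDBP1, with log2 fold changes of 0.75, 0.73 and 0.71. SRGAP2B shares sequence with near-identical copies, and its count is uncertain. For MEIS1 they were TAF1D (0.0138 among 3677 genes), PUS7L and CCDC25, with 0.34, 0.35 and 0.31. With 6 samples in 2 groups, such likeness mostly restates an equal fold change.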

How the data were processed

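RNA-seq of MV4-11 cells was compared between 3 Ctrl and 3 WNK463 samples, grouped by their labels. The authors deposited estimated counts per gene and sample as whole numbers, not normalized, of which 62 values were 0 beside a TPM above 0, and the authors' TPM values, which sum to 1000000 per sample. Group means, fold changes and p-values of the authors' own comparison were not used. The submitters' processing notes name fastp, Bowtie2, HISAT2, StringTie, RSEM, DESeq2 and edgeR and the build GRCh38, with no versions, and no strand setting was given in the sources used here. Of 20348 genes, 4605 were at 0 in all samples and 629 had no symbol.

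Counts were tested with edgeR 4.0.16 in R 4.3.3 (TMM scaling, filterByExpr at its defaults, quasi-likelihood F test with group as the only term), with Benjamini-Hochberg adjustment over 11973 genes and a threshold of 0.05. CPM used the scaled library sizes. A level of 3 counts was the floor, and it covers counting error only. Every member was named. Other genes came from lists by role, and for HOXA9 and MEIS1 the 3 genes closest in centred log2 CPM (prior count 2) were named. The members and lists were chosen with earlier results of these data known. The alternatives were DESeq2 1.42.0, other scalings and filters, a test against a log2 fold change of 1, limma 3.58.1 on log2(TPM + 1) and log2(TPM + 0.1) for genes at 1 TPM or more in 3 samples, a replicate block, and each sample left out. The procedure was tested on simulated data in which few genes changed, equally many up and down, so that test does not bear on the choice of scaling. Replicates differed by 2.64 to 7.13 chi-square per degree of freedom, more than sampling noise, so none was merged. Same-numbered samples did not deviate together. Positions are from GENCODE 29 and promoters from RefSeq on GRCh38.p14. Some genes of the lists are not reported here.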

Additional observations from a re-analysis of the deposited data

How the results depend on the processing

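The 6 higher members kept their direction and passed the test under all 16 alternatives read for members, with log2 fold changes of 0.67 to 0.87 for HOXA9, 0.27 to 0.61 for MEIS1, 0.27 to 0.49 for PBX3, 0.70 to 0.88 for MEF2C, 0.69 to 1.02 for JMJD1C and 0.23 to 0.49 for CDK6. The test against a log2 fold change of 1, read only for counts over all genes, is not among the 16. HOXA10 was called lower and did not hold. It no longer passed under DESeq2 (-0.15), upper-quartile scaling (-0.05) or a minimum of 10 counts in every sample (-0.12), and it turned to 0.01 under total-count scaling and to 0.05 with limma on log2(TPM + 1), on log2(TPM + 0.1) and without the TPM filter. Without each replicate in turn it ranged from -0.19 to -0.13, and the call was lost without Ctrl 2, Ctrl 3, WNK463 1 or WNK463 2. The number of lower members was then 0 instead of 1 under each of these settings, and between 0 and 1 without each replicate. HOXA11, not past the test, turned to 0.04 in the 3 limma fits. HOXA10 lost its call also in fits that kept TMM scaling, such as those without 1 sample. The cause of these shifts was not tested.

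Same-numbered samples showed no shared deviation, with correlations of 0.019, -0.007 and -0.048 over 11973 genes. These values cannot tell whether such samples were set up as pairs. With the replicate block HOXA10 was at -0.14 (adjusted p = 0.053), which left 0 lower members, and no other member's call changed.

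Over all tested genes at both thresholds, 1152 were higher and 665 lower. The higher count was 740 with at least 10 counts in every sample and 610 when tested against a log2 fold change of 1. The lower count was 345 in that test, and 266, 366 and 268 in the limma fits with TPM + 1, TPM + 0.1 and no TPM filter. The ranges without each replicate were 1154 to 1236 and 663 to 703. Of 320 list counts recomputed, 262 stayed within 1.5 times the reported count. Depth limits HOXA3, HOXA5 and HOXA7, where 3 counts or fewer allow no comparison.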

Other observations

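The count per TPM unit of a gene, relative to other genes of the same sample, follows the length of the transcripts that the counting assigned to it. For MEF2C this relative length was -0.08, -0.02 and -0.19 in Ctrl and 0.05, 0.11 and 0.12 with WNK463, as log2 deviations from its mean over samples. The groups did not overlap, and the assigned length was 14.3% greater with WNK463, a larger increase than that of 94.7% of 9938 genes. For MEIS1 it was 6.05% smaller with WNK463, and its groups overlapped. The other tested members moved by less than 4%. Isoforms cannot be told from these values, and no isoform table was used here.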
